A study of Mus musculus with 6 samples.

Results

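The genes described here are 10 regulators of the step from G1 into S phase that are commonly listed as targets of the miR-16 family: the D-type cyclins Ccnd1, Ccnd2 and Ccnd3, the E-type cyclins Ccne1 and Ccne2, the kinases Cdk4, Cdk6, Wee1 and Chek1, and the phosphatase Cdc25a. They were found by gene name, by a rule that sets no threshold on their values, and are 10 of the 55421 genes in the count table. All 10 were expressed well enough to be tested, as were 18140 genes in all. RNA was sequenced from C2C12 mouse myoblasts that model myotonic dystrophy type 1 (DM1), a muscle disease caused by an expanded CTG repeat that is transcribed as toxic CUG repeat RNA. Every library came from cells with a stable insertion of pCDNA3-GFP-(CUG)200, in which 200 CUG repeats follow the GFP coding sequence. The control cells also carried the empty vector pLL4.0, and the other cells carried the same vector with the miR-322 and miR-503 genes and form the miR line. Both were drug-selected stable lines (G418 and puromycin) taken on day 4 of differentiation, with 3 libraries per group. Each group was its own line, so a difference between the lines and an effect of the microRNAs cannot be told apart, and the labels do not say that the libraries came from separate cultures, so the p-values measure only the spread between these libraries.

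Progress through G1 is driven by D-type cyclins, which bind Cdk4 or Cdk6 and phosphorylate the retinoblastoma protein, releasing E2F transcription factors. E2F then induces the E-type cyclins, which activate Cdk2 at the start of DNA replication. Cdc25a activates these kinases by removing inhibitory phosphates, Wee1 adds such a phosphate, and Chek1 restrains Cdc25a when replication is disturbed. MicroRNAs of the miR-16 family pair through their seed, bases 2 to 8, with sites in 3′ UTRs and lower the stability or translation of the mRNA. Muscle precursors leave the cell cycle as they differentiate, and Ccnd3 is known as the D-type cyclin that rises in differentiating myotubes.

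The mature sequences show why miR-322 and miR-503 are placed in this family. They were read from RefSeq (GRCm38.p6), 5′ to 3′, with the seed in capitals:
miR-322-5p: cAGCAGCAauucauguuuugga
miR-503-5p: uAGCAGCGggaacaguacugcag
miR-16-5p: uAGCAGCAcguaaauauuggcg
The seed of miR-322-5p is that of miR-16-5p, and the seed of miR-503-5p differs from it in the last base. The heptamer that pairs with the seed is TGCTGCT for miR-322-5p and CGCTGCT for miR-503-5p. In the longest annotated 3′ UTR of each gene (GENCODE M21, GRCm38, sense strand), 8 of the 10 regulators held the miR-322 heptamer, against 24.4% of the 13416 tested genes with a 3′ UTR of at least 50 bases. The miR-503 heptamer was found in 2 of the 10, Ccnd1 and Ccnd2, against 4.87% of the same genes. The regulators were listed because they are known targets, so these shares are a property of the list.

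The following sites belong to the 4 regulators whose RNA differed between the lines, each with 15 bases before the heptamer, which is in capitals:
Ccnd1, miR-503 heptamer, first: cggctcctctcatggCGCTGCTaccgatga
Ccnd1, miR-503 heptamer, second: ctttcacgttgttttCGCTGCTattggagg
Ccnd1, miR-322 heptamer: ttgtgcatgccaccaTGCTGCTggcccggg
Ccnd3, miR-322 heptamer: cactgttgctttgctTGCTGCTtagcttct
Cdk6, miR-322 heptamer: ccaagttgcacagggTGCTGCTatctcaaa
Chek1, miR-322 heptamer: tcctggtgaatagagTGCTGCTatgtgaca
In GRCm38 coordinates the windows lie on the minus strand at chr7:144930863-144930892, chr7:144930786-144930815 and chr7:144930387-144930416 for Ccnd1, on the plus strand at chr17:47599279-47599308 for Ccnd3 and at chr5:3524530-3524559 for Cdk6, and on the minus strand at chr9:36710283-36710312 for Chek1. All 6 are in the 3′ UTR. The Ccnd1 heptamers start at bases 1730, 1807 and 2206 of a 3′ UTR of 2676 bases, and the Ccnd3 heptamer starts at base 518 of 915. Cdk6 has a long 3′ UTR of 10217 bases with 3 miR-322 heptamers, at bases 3754, 5177 and 5180, and the last 2 overlap. The Chek1 heptamer lies at base 38 of 1853, just past the stop codon. Of the other regulators, Ccne1 held 1 miR-322 heptamer, Ccnd2 held 1 of each kind, and Cdc25a and Wee1 held 2 miR-322 heptamers each. Neither heptamer was found in the 3′ UTRs of Ccne2 and Cdk4.

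The deposited totals were 73532084 to 92157388 estimated counts per library, at about 4 counts per read pair. Levels between libraries are given below as CPM, counts scaled to a common library total, and levels between genes as TPM, the share of transcripts, which takes transcript length into account and sums to the same total in each library. A gene was called higher or lower in the miR line at a Benjamini-Hochberg adjusted p under 0.05 in edgeR's quasi-likelihood test over all 18140 genes. Across all genes 28.8% were called, 13.2% higher and 15.5% lower. The overexpressed microRNAs could not be tested, because their hairpins were almost unread. Mir503 had 1, 1 and 2 estimated counts in the control libraries and 6, 4 and 5 in the miR libraries. Mir322 had 1, 7 and 2 against 17, 0 and 3. At about 4 counts per read pair, these values are too few to compare the lines. Their host transcript C430049B03Rik had a log2 fold change of 0.26 (edgeR adjusted p = 0.371).

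The 10 regulators did not move together. Ccnd3 and Cdk6 rose in the miR line, Ccnd1 and Chek1 fell, and Ccnd2, Ccne1, Ccne2, Cdk4, Cdc25a and Wee1 did not pass the test. The 2 called higher of 10 stand beside 13.2% of all genes, and the 2 called lower beside 15.5%. The count called higher was 1, Cdk6, without control replicate 1, control replicate 2, miR replicate 2 or miR replicate 3, since Ccnd3 then missed the threshold. With a further limit of 1 on the size of the log2 fold change, Ccnd3 was the 1 regulator called higher, beside 4.59% of all genes, and 0 were called lower, beside 5.29%. CPM values of the 2 groups did not overlap for 5 regulators, Ccnd1, Ccnd2, Ccnd3, Cdk6 and Chek1, beside 45.1% of all genes. The median log2 fold change of the 10 was -0.07, against -0.01 for all genes, and the median size of the log2 fold change was 0.38, against 0.29.

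**Figure D1:**
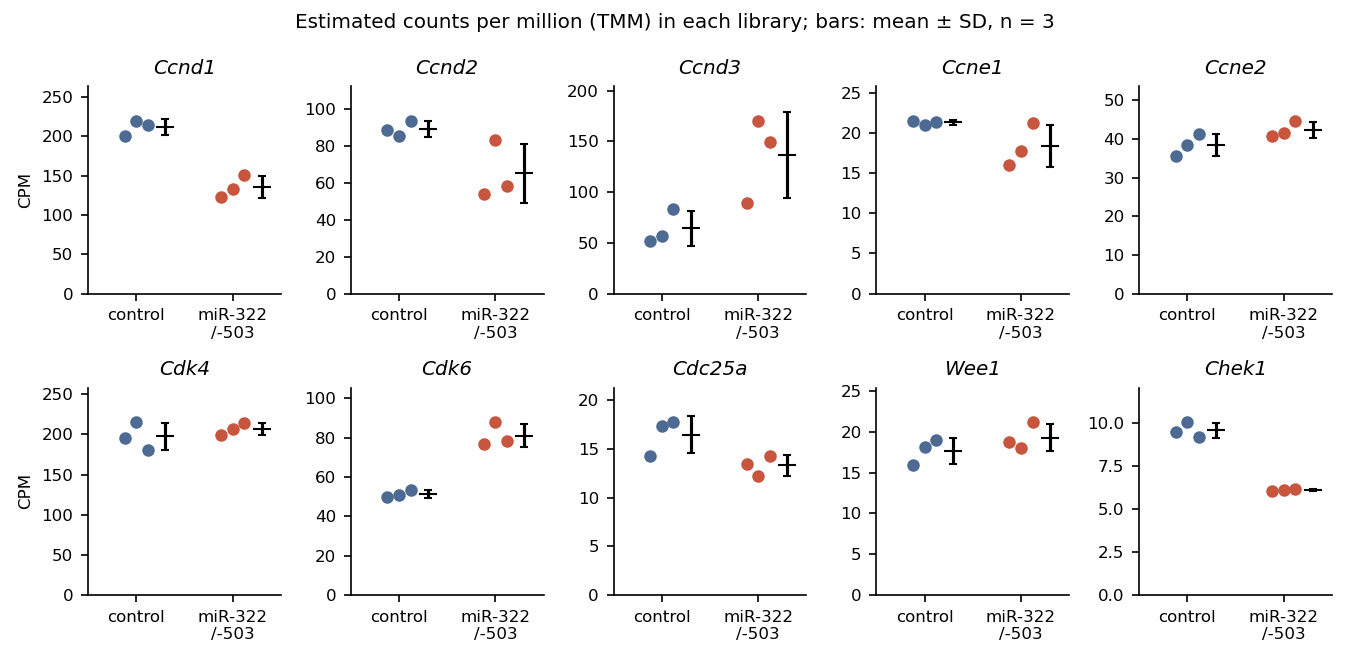
CPM (vertical axes, each starting at 0) of the 10 regulators, 1 panel per gene, with a point for each of the 3 control and 3 miR libraries and beside them a bar for the mean ± SD. The groups stand apart for Ccnd1, Ccnd2, Ccnd3, Cdk6 and Chek1, and Ccnd3 and Ccnd2 show the widest spread in the miR line.

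Ccnd1 (ENSMUSG00000070348, chr7:144929931-144939925, minus strand), the cyclin D1 that growth factors induce in proliferating cells, was read at 201, 220.1 and 215 CPM in the control libraries and at 123, 133 and 150.3 CPM in the miR libraries. Every miR library was below every control library. The means were 212 ± 9.83 and 136 ± 13.7 CPM (SD, n = 3 each), a log2 fold change of -0.64 (SE 0.0845, 95% CI -0.84 to -0.45, edgeR adjusted p = 0.00117), or 1.56-fold lower. On the level per length it fell from 111 ± 5.58 to 68.5 ± 3.90 TPM. The 3′ end of Ccnd1 shares 1771 bases with LTO1 on the opposite strand, whose log2 fold change was 0.51 (edgeR adjusted p = 0.0425) on 582 to 1043 estimated counts per library. The call of LTO1 was lost without control replicate 1, control replicate 2, miR replicate 2 or miR replicate 3 (adjusted p = 0.104 to 0.129). The strand setting of the counting is not given in the sources used here, so reads from the shared stretch could have been counted for either gene.

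Ccnd2 (chr6:127125162-127152193, minus strand), cyclin D2, had 88.4, 85.2 and 93.6 CPM in the control line and 54.0, 83.3 and 58.0 CPM in the miR line. These CPM values did not overlap, but replicate 2 of the miR line was close to the control range, and per length, at 28.4 TPM, it lay just above the highest control library, so the TPM values overlapped. The log2 fold change of -0.45 (SE 0.155, 95% CI -0.82 to -0.09) missed the threshold at an edgeR adjusted p of 0.0666. It was -0.67 at an adjusted p of 0.00157 without that library and passed in DESeq2 at an adjusted p of 0.0147. It did not pass with any other library left out, for example at -0.33 (adjusted p = 0.167) without miR replicate 1, nor with limma on log2(TPM + 1) (adjusted p = 0.164).

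Ccnd3 (ENSMUSG00000034165, chr17:47505051-47599691, plus strand) had the largest fold change of the 10. It was read at 52.2, 56.6 and 83.6 CPM in the control line and at 89.2, 170.4 and 149 CPM in the miR line. The lowest miR library was only slightly above the highest control library. The means were 64.1 ± 17.02 and 136 ± 42.1 CPM, a log2 fold change of 1.09 (SE 0.264, 95% CI 0.47 to 1.71, edgeR adjusted p = 0.0194), or 2.12-fold higher. The direction held whichever library was left out, with log2 fold changes of 0.89 to 1.32, but the call did not: the adjusted p was 0.0732 without control replicate 1, 0.0726 without control replicate 2, 0.0628 without miR replicate 2 and 0.0606 without miR replicate 3. Per length the libraries read 52.6, 56.1 and 82.9 TPM in the control line against 87.1, 225 and 139 TPM, and limma on log2(TPM + 1) gave an adjusted p of 0.0549. In miR replicate 2 the ratio of TPM to CPM for this gene was 1.32, against 0.931 at the lowest of the 6 libraries. Ccnd3 shares 361 bases with Bysl on the opposite strand, whose log2 fold change was -0.22 (edgeR adjusted p = 0.122, and 0.0315 without control replicate 3).

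Within the D-type cyclins, Ccnd1 and Ccnd3 changed places. In every control library Ccnd1 held most of the summed TPM of the 3 genes, at 56.7%, 57.9% and 50.2%, and Ccnd3 held 28.5%, 28.2% and 37.1%. In the miR libraries Ccnd3 held 51.4%, 69.8% and 60.9%, and Ccnd1 held 38.0%, 21.4% and 31.7%. Ccnd2 held 13.8 ± 1.02% of the sum in the control line and 8.94 ± 1.60% in the miR line. The ratio of Ccnd3 to Ccnd1 TPM, a measure chosen after the levels were seen, was 0.503, 0.486 and 0.739 in the control line and 1.35, 3.26 and 1.92 in the miR line. The summed TPM of the 3 D-type cyclins was 184, 199 and 223 in the control line. It was 239.9 ± 77.0 in the miR line (SD, n = 3), from 169 in replicate 1 to the highest total in replicate 2, so the totals overlapped while the shares did not. On estimated counts, which are not per length, the Ccnd3 share went from a mean of 17.4% to 39.8% and Ccnd1 from 58.1% to 40.9%, and Ccnd3 led Ccnd1 in miR replicate 2 only. With 3 libraries against 3, the smallest two-sided p of an exact permutation test is 0.10, so shares and ratios were not tested.

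**Figure D2:**
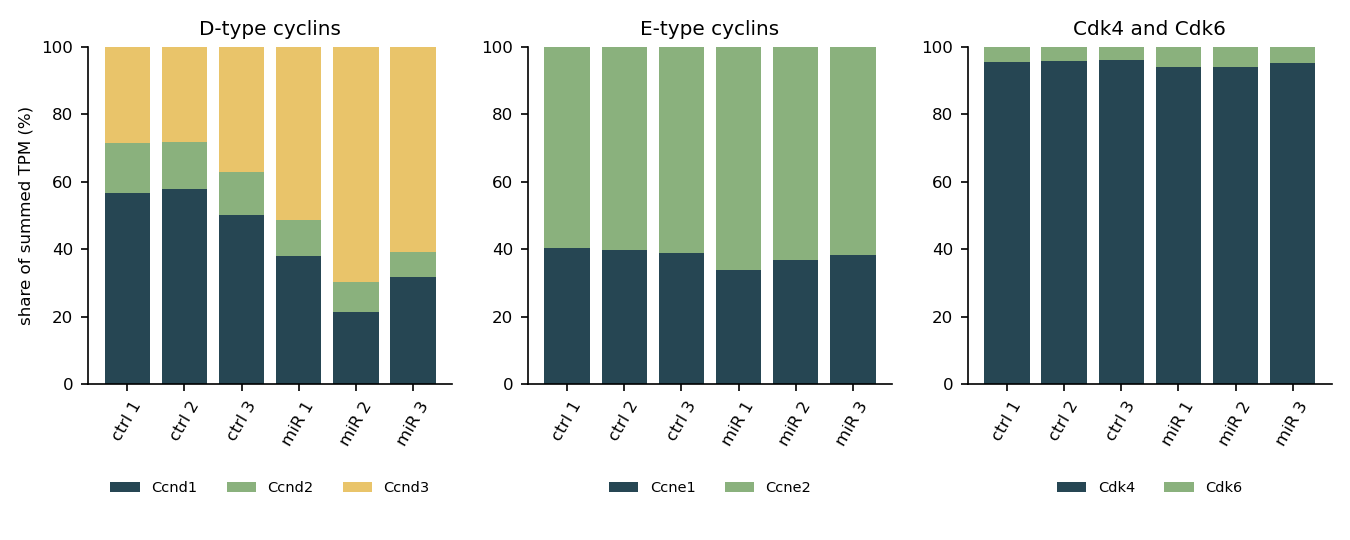
Stacked bars, 1 per library (ctrl for the control line, miR for the miR line), of the share of summed TPM (vertical axis, percent, from 0) held by each D-type cyclin, each E-type cyclin and each of Cdk4 and Cdk6. Ccnd1 led the D-type cyclins in every control library and Ccnd3 in every miR library, at 51.4% to 69.8%, and Cdk4 held 94.1% or more of its pair in all 6 libraries.

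Neither E-type cyclin passed the test. Ccne1 (chr7:38097984-38107534, minus strand), cyclin E1, was read at 21.3 ± 0.276 CPM (SD, n = 3) in the control line and at 16.0, 17.8 and 21.2 CPM in the miR line, with overlap at the upper end. Per length it read 21.5 ± 0.301 TPM in the control line and 18.2 ± 2.10 TPM in the miR line, with no overlap. Its log2 fold change was -0.22 (95% CI -0.48 to 0.05, edgeR adjusted p = 0.202). With each library left out in turn it was -0.33 to -0.12 (edgeR adjusted p = 0.0503 to 0.470). Ccne2 (chr4:11191351-11204779, plus strand), cyclin E2, was read at 35.7, 38.3 and 41.4 CPM and at 40.7, 41.6 and 44.8 CPM. The log2 fold change of Ccne2 was 0.14 (95% CI -0.05 to 0.32, edgeR adjusted p = 0.243), and it turned to -0.04 with limma on log2(TPM + 1), so no direction is given. Ccne2 shares 5622 bases with Ints8 on the opposite strand, whose log2 fold change was 0.02 (edgeR adjusted p = 0.890), and the median of the other tested genes of its chromosome, 4, was -0.19. Both intervals leave room for small changes and end within 0.5 of 0 on the log2 scale. Ccne2 supplied more of the E-type cyclin TPM than Ccne1 in every library, at 59.6% to 61.1% in the control line and 61.6% to 66.1% in the miR line. The 2 genes together came to 53.8, 54.5 and 54.4 TPM in the control line and 47.4, 49.8 and 52.8 TPM in the miR line, with no overlap.

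Of the kinases that D-type cyclins activate, Cdk6 rose and Cdk4 did not pass the test. Cdk6 (chr5:3341485-3531008, plus strand) was read at 49.8, 50.7 and 53.5 CPM in the control line and at 76.7, 87.9 and 78.4 CPM in the miR line, well apart. The log2 fold change was 0.66 (SE 0.0696, 95% CI 0.49 to 0.82, edgeR adjusted p = 0.000413), or 1.58-fold higher. Over the other 1181 tested genes of chromosome 5 the log2 fold change had a median of 0.17, and Cdk6 minus that median was 0.49. Cdk4 (chr10:127063534-127067920, plus strand) was read at 196, 215 and 181 CPM in the control line and at 199, 207 and 215 CPM in the miR line, which overlap (log2 fold change 0.07, 95% CI -0.11 to 0.25, edgeR adjusted p = 0.581). Cdk4 overlaps 641 bases of Tspan31 on the opposite strand, whose log2 fold change was 0.12 (edgeR adjusted p = 0.351). Cdk4 was by far the more abundant of the pair, at 258 ± 22.2 and 288 ± 22.0 TPM against 11.5 ± 0.580 and 16.8 ± 1.98 TPM for Cdk6. The ratio of Cdk4 to Cdk6 TPM, also chosen after the levels were seen, was 20.8, 22.7 and 24.0 in the control line and 15.8, 16.2 and 19.6 in the miR line.

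Chek1 (chr9:36708482-36727065, minus strand), the checkpoint kinase that acts when replication forks stall, differed little among the libraries of each line. It was read at 9.50, 10.1 and 9.18 CPM in the control line and at 6.06, 6.08 and 6.16 CPM in the miR line. The log2 fold change was -0.65 (SE 0.0956, 95% CI -0.87 to -0.43, edgeR adjusted p = 0.00203), or 1.57-fold lower. Per length it read 7.11 ± 0.902 TPM in the control line and 4.83 ± 0.709 TPM in the miR line, the lowest of the 10 in both. Many genes of chromosome 9 were lower in the miR line: the log2 fold changes of its other 1012 tested genes had a median of -0.27, and 76.3% of them were below 0. Chek1 minus that median was -0.38, and 19.7% of those genes had a lower log2 fold change than Chek1. The part of the chromosome-wide difference in the Chek1 value was not tested.

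Cdc25a (chr9:109875579-109893895, plus strand), also on chromosome 9, was read at 14.3, 17.4 and 17.8 CPM in the control line and at 13.4, 12.2 and 14.3 CPM in the miR line, and the groups touched at 14.3 CPM. Its log2 fold change of -0.31 (SE 0.115, 95% CI -0.58 to -0.04) missed the threshold at an edgeR adjusted p of 0.0867. Without control replicate 1, the lowest of the control libraries, it was -0.40 at an adjusted p of 0.0420, and limma on log2(TPM + 1) gave an adjusted p of 0.0338. Minus the chromosome 9 median it was -0.04. Wee1 (chr7:110122046-110143286, plus strand), the kinase that opposes Cdc25a, was read at 15.9, 18.2 and 19.0 CPM in the control line and at 18.7, 18.0 and 21.2 CPM in the miR line (log2 fold change 0.13, 95% CI -0.12 to 0.37, edgeR adjusted p = 0.423). Neither gene passed the edgeR test. Per length Cdc25a alone separated the lines, at 9.62 ± 0.536 TPM in the control line and 7.57 ± 0.363 TPM in the miR line. The TPM values of Wee1 overlapped. The ratio of Wee1 to Cdc25a TPM, chosen after the levels were seen, was 0.991, 1.02 and 1.05 in the control line and 1.40 in each miR library.

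**Figure D3:**
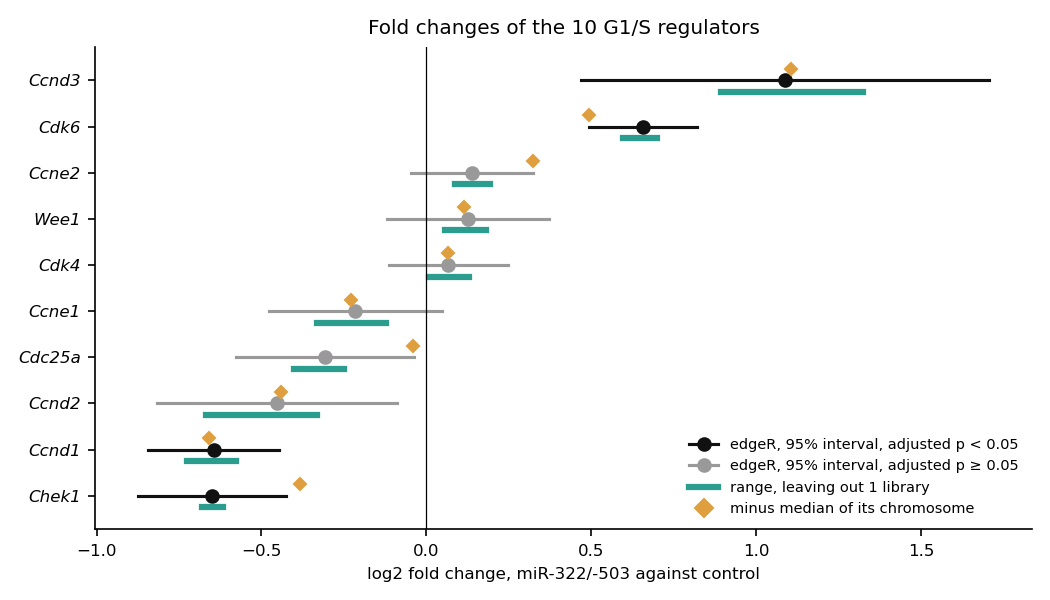
Log2 fold change, miR line over control (horizontal axis), of the 10 regulators, with a point and bar for the edgeR value and its 95% confidence interval, a green bar for the range when each library is left out in turn, and a diamond for the value minus the median of the other tested genes on its chromosome. Ccnd3 and Cdk6 lie above 0 and Ccnd1 and Chek1 below, and the diamond of Cdc25a lies at -0.04, against -0.31 for its point.

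Ranked by TPM in the control line, the order was Cdk4, Ccnd1, Ccnd3, Ccne2, Ccnd2, Ccne1, Cdk6, Wee1, Cdc25a and Chek1, and of these neighbours only the library ranges of Wee1 and Cdc25a overlapped. In the miR line the order was the same except that Ccnd3 stood above Ccnd1. There the ranges of Ccnd2 and Ccne1, and those of Ccne1 and Cdk6, overlapped.

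Regulators that rose and regulators that fell both held the miR-322 heptamer. The miR-503 heptamer was held only by Ccnd1 and Ccnd2, with log2 fold changes of -0.64 and -0.45, and Ccnd2 was not called. The 8 with at least 1 miR-322 heptamer, which hold 15 matches of either kind, included both that rose and both that fell. Their median log2 fold change was -0.26. The 2 without a match were Ccne2 and Cdk4, with a median of 0.10. Because the regulators were listed as known targets, only these 2 lacked a match, and neither was called. This split therefore cannot show whether matches go with direction. Across the 13416 tested genes with a 3′ UTR of at least 50 bases the median log2 fold change was 0.01 with a miR-322 heptamer and -0.02 with neither heptamer. Genes with a match have longer 3′ UTRs, with a median of 2282 bases against 893.

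The rest of the cell cycle machinery is given by lists beside the regulators, whose median log2 fold change was -0.07. In bulk RNA, fewer cycling cells and less of each RNA per cell cannot be told apart. All 8 proliferation markers fell, with a median log2 fold change of -0.68 beside 15.5% of all genes called lower, and their summed TPM was 403 to 413 in the control line and 250.8 to 267 in the miR line. The count was 5 without control replicate 1, without miR replicate 2 or without miR replicate 3. Mki67, a nuclear protein of cycling cells, fell from 343 ± 22.1 to 203 ± 9.90 CPM (edgeR adjusted p = 0.000229). Birc5, survivin, fell by 0.79 on the log2 scale (edgeR adjusted p = 0.000354).

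Of 14 further cell cycle kinases, cyclins and phosphatases, 9 fell and 1 rose, beside 15.5% lower and 13.2% higher over all genes, with a median log2 fold change of -0.55. Ccnb2, a mitotic cyclin, fell from 37.4 ± 1.66 to 16.0 ± 0.678 CPM (log2 fold change -1.22, edgeR adjusted p = 3.14e-05). Cdc25c, a relative of Cdc25a that acts at mitotic entry, fell by 1.10 on the log2 scale (edgeR adjusted p = 0.000469). Cdc25b was the 1 that rose, by 0.43 on the log2 scale (edgeR adjusted p = 0.0113), so the 3 Cdc25 phosphatases did not share a direction.

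Of 20 S phase genes that E2F induces for DNA replication, 5 fell and 0 rose, beside 15.5% lower and 13.2% higher over all genes, with a median log2 fold change of -0.12. The count that fell was 3 without control replicate 2, without control replicate 3 or without miR replicate 3. Tk1, thymidine kinase, fell by 0.41 and Prim1, a primase subunit, by 0.30 on the log2 scale (edgeR adjusted p = 0.00566 and 0.0478). The call of Prim1 was lost without any 1 library but miR replicate 1 (adjusted p = 0.0668 to 0.143) and under 4 other settings. The others that fell, named after their values were seen, were Mcm4 and Mcm5 of the replicative helicase and Rrm1 of ribonucleotide reductase. The call of Mcm4 (adjusted p = 0.0279) was lost without any 1 library but control replicate 1 (adjusted p = 0.0572 to 0.107) and under 2 other settings. Of the 10 E2F and DP factors, 2 rose and 1 fell, close to the 13.2% and 15.5% of all genes. E2f4, which acts mainly as a repressor with the pocket proteins, rose from 60.8 ± 4.18 to 85.7 ± 3.40 CPM (edgeR adjusted p = 0.00135), E2f3 rose by 0.25 (adjusted p = 0.0365) and E2f7, an atypical repressor, fell by 0.60 on the log2 scale (adjusted p = 0.0103). The count that rose was 1 without control replicate 1, control replicate 3, miR replicate 2 or miR replicate 3, and 4 without control replicate 2. Each time it was 1, the call of E2f3 was the one lost (adjusted p = 0.0723 to 0.104).

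Among the 10 inhibitors of cyclin-dependent kinases and pocket proteins, 5 fell and 0 rose among the 8 tested, beside 15.5% and 13.2% of all genes, and Cdkn2a and Cdkn2b had 0 counts in all libraries. Cdkn1c, the inhibitor p57, had 205, 308 and 271 estimated counts in the control libraries and 5, 0 and 4 in the miR libraries (edgeR adjusted p = 0.000144). Cdkn2d, the inhibitor p19 of Cdk4 and Cdk6, fell from 19.9 ± 2.67 to 11.6 ± 1.66 CPM (edgeR adjusted p = 0.00551). The other 3 that fell, named after their values were seen, were Cdkn2c, another inhibitor of Cdk4 and Cdk6, and the pocket proteins Rbl1 and Rbl2. Cdkn1a, the inhibitor p21 that rises as myoblasts leave the cycle, is named here after its value was seen: its log2 fold change was 0.08 (edgeR adjusted p = 0.277). Of 15 genes of the checkpoint around Chek1 and of cyclin turnover, 5 fell and 1 rose, beside 15.5% and 13.2% of all genes. Clspn, the adaptor through which Chek1 is activated, fell by 0.54 on the log2 scale (edgeR adjusted p = 0.00132), and Rad9a, part of the clamp loaded at damaged DNA, by 0.37 (adjusted p = 0.0291). Also lower, and named after their values were seen, were Atrip, Atm and Topbp1, all on chromosome 9 as Chek1 is. Their log2 fold changes were -0.31, -0.35 and -0.35, close to the chromosome 9 median of -0.27 given with Chek1. The part of the chromosome-wide difference in these values was not tested. The call of Atrip (adjusted p = 0.0455) was lost with any 1 library left out (adjusted p = 0.0509 to 0.134) and under 4 other settings. Rad17, which loads that clamp, rose by 0.36 (adjusted p = 0.0156). Of these checkpoint genes 3 fell and 0 rose without control replicate 1, without control replicate 2, without miR replicate 1 or without miR replicate 3. The calls of Rad9a (adjusted p = 0.0756 to 0.0944) and Rad17 (adjusted p = 0.0528 to 0.0588) were lost each of these times.

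**Figure D4:**
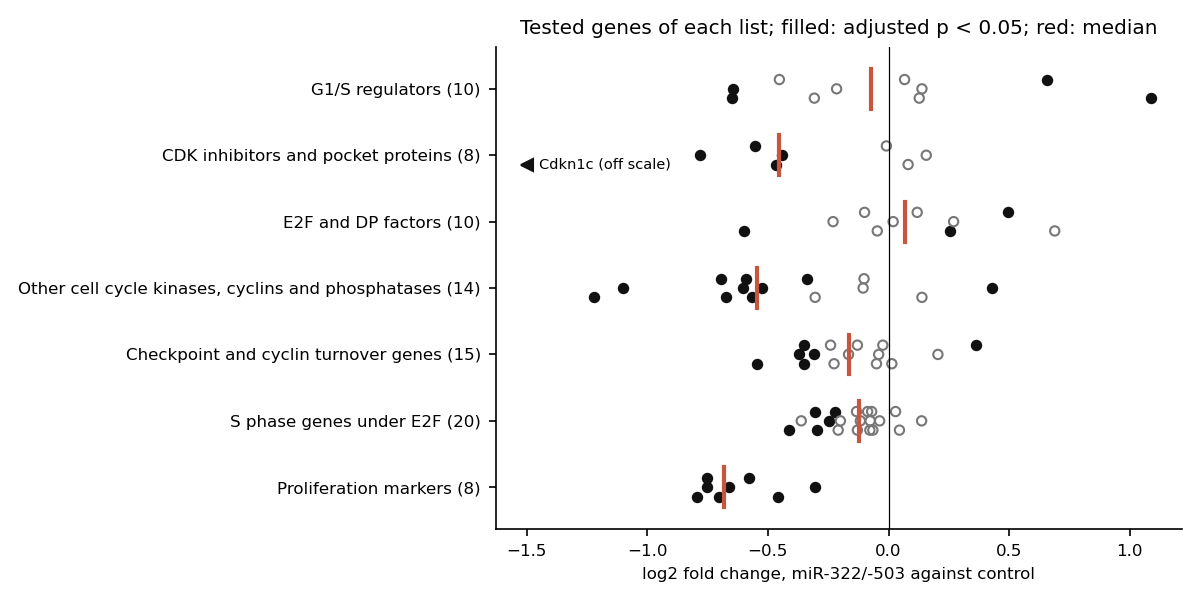
Log2 fold change, miR line over control, of each tested gene of the G1/S regulators and of the other cell cycle lists, 1 point per gene, with the median of each list marked in red. Filled points are called genes, and Cdkn1c, off the scale, is an arrowhead at the left edge. The median is -0.07 for the 10 regulators, -0.55 for the further kinases, cyclins and phosphatases and -0.68 for the proliferation markers.

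Markers of muscle cells were abundant in sum in both lines, and most were higher in the miR line. The summed TPM of 9 muscle markers was 3166 to 3723 in the control line and 4041 to 4235 in the miR line. Of the 9, 6 were called higher, beside 13.2% of all genes, and 2 were not called. Myog, the myogenin of early differentiation, was the 1 called lower, beside 15.5% of all genes (log2 fold change -0.74, edgeR adjusted p = 0.000665). Des, desmin, rose by 0.65 on the log2 scale (edgeR adjusted p = 0.000158), and Acta1, skeletal actin, had a log2 fold change of 0.09 (edgeR adjusted p = 0.465). Markers of undifferentiated myoblasts overlapped in sum, at 108 to 131 against 100.2 to 143 TPM over 6 genes, with Pax7 under 1 TPM throughout. Myf5 and Id2 were called higher, by 0.35 and 0.71 on the log2 scale (edgeR adjusted p = 0.00364 and 0.00109). The TPM values of Id2 overlapped between the lines, at 23.9 ± 4.49 in the control line and 37.9 ± 11.2 in the miR line. Id3, named after its value was seen, was called lower (log2 fold change -0.56, edgeR adjusted p = 0.0356), a call lost without control replicate 1, control replicate 2, miR replicate 2 or miR replicate 3. Fibroblast markers summed lower in the miR line, at 427 to 447 against 335 to 361 TPM over 5 genes, with Tcf21 at 0. Dcn fell by 0.22 and Lum by 3.19 on the log2 scale (edgeR adjusted p = 0.0257 and 5.06e-05), and the call of Dcn was lost without any 1 library but control replicate 1 (adjusted p = 0.0523 to 0.0798). Adipocyte markers summed to 4.85 to 5.07 against 2.26 to 2.91 TPM, nearly all of it Cebpa, with Adipoq, Fabp4 and Lep at 0 in all libraries. Cebpa was called lower, from a mean of 6.84 to 3.42 CPM (edgeR adjusted p = 0.00112). Osteoblast markers overlapped, at 26.9 to 28.8 against 23.9 to 27.7 TPM, with Ibsp at 0, Runx2 at a log2 fold change of -0.11 (edgeR adjusted p = 0.362) and Alpl at -2.76 (edgeR adjusted p = 0.0135). The part of these differences in the values of the G1/S regulators was not tested.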

How the data were processed

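Read trimming by the authors used Trim Galore, alignment to the GRCm38 genome used HISAT2, and StringTie quantified the transcripts. Tool versions, the annotation release and the strand setting are not given in the sources used here. The deposited count table holds estimated counts per gene as whole numbers, about 4 per read pair. The deposited tables per library hold FPKM, TPM and coverage, and TPM was used here, while FPKM and coverage were not. All columns belonged to a sample (0 of other samples).

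Counts were tested in R 4.3.3 with edgeR 4.0.16 (filterByExpr, TMM scaling, quasi-likelihood fit and test, 3 libraries against 3, no covariate, Benjamini-Hochberg adjustment over 18140 genes). Confidence intervals used the total degrees of freedom of that fit, 7.35. The pipeline was tested on simulated counts with known changes. DESeq2 1.42.0, limma 3.58.1 on log2(TPM + 1), other scalings, other filters, counts divided by 4, a replicate block and leaving out each library were tried as alternatives. Replicates of a group differed by more than counting noise, so none was a copy.

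The 10 regulators and the other lists were chosen with earlier results of these data known. Named beyond them were, per cell cycle list, the 2 called genes with the largest rise and the 2 with the largest fall, and per marker list the 2 with the highest mean TPM. Genes outside this rule are marked in the text, are overlapping neighbours or the host transcript of the microRNAs, or, as Myog and the genes given as at 0 or under 1 TPM, were named after their values were seen. Seed matches were searched in the longest 3′ UTR of GENCODE M21.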

Additional observations from a re-analysis of the deposited data

How the results depend on the processing

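Ccnd1, Cdk6 and Chek1 kept their direction and their call under all 14 refits, with log2 fold changes of -0.72 to -0.58, 0.51 to 0.70 and -0.68 to -0.48. Under limma on log2(TPM + 1), 1 regulator was called higher, because Ccnd3 (1.146) missed the threshold, while Cdc25a (-0.31) passed it and Ccne2 turned to -0.042. The same setting called 1 E2F or DP factor higher, 0 further kinases, cyclins and phosphatases higher and 3 S phase genes lower. DESeq2 called Ccnd2 lower (-0.44), which made 3 regulators lower, and it called 4 E2F or DP factors higher. Without a filter on low counts, 1 E2F or DP factor was higher and 3 S phase genes were lower, and upper-quartile scaling called 2 checkpoint genes higher. Leaving out each library in turn gave 1 to 2 regulators higher, 1 to 4 E2F or DP factors higher, 0 to 1 checkpoint genes higher and 3 to 4 lower, 3 to 5 S phase genes lower and 5 to 8 proliferation markers lower. It gave log2 fold changes of -0.67 to -0.33 for Ccnd2, 0.89 to 1.32 for Ccnd3 and -0.40 to -0.25 for Cdc25a. Minus the median of its chromosome the value was 0.32 for Ccne2, 0.49 for Cdk6, -0.039 for Cdc25a and -0.38 for Chek1. Computed from counts in place of TPM, the change in share was -17.2 percentage points for Ccnd1 (-24.6 by TPM), 22.3 for Ccnd3 (29.4 by TPM), -5.56 for Ccne1 and 5.56 for Ccne2 (-3.31 and 3.31 by TPM), and -7.42 for Cdk4 and 7.42 for Cdk6 (-1.27 and 1.27 by TPM). Of the values of the named and tested genes outside the 10, overlapping neighbours included, 510 kept their direction and their side of the threshold, 58 lost their call, 2 gained one (Bysl) and 2 turned sign (Ints8, not called, -0.059 to 0.085 with 1 library left out). The causes of these changes were not tested.

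The same-numbered libraries of the 2 groups had correlated deviations of 0.264, 0.156 and 0.0994, and since 1 of these is under 0.1 and the labels name no shared batch, they were taken to share only a number, although each library correlated best with the one of its own number. With a replicate block, 2 regulators were called higher and 2 lower, and across all genes 2667 were higher and 3066 lower, against 2401 and 2817 without it. The intervals rest on 3 libraries per group and on 1 line each.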
